A study of Mus musculus with 8 samples.

Results

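Chemokine ligands are the secreted, or in a few cases membrane-bound, proteins that direct the migration of leukocytes. They were taken here as every symbol of the deposited gene list that begins with Ccl, Cxcl, Xcl or Cx3cl and a digit, with 1 family member left out. The rule found 43 of the 31053 gene rows, carrying 38 symbols, and used no measured value. Transcripts were counted in 8 droplet single-cell libraries of the mouse colonic lamina propria, the connective tissue under the gut epithelium, from C57BL/6 mice of 10 to 12 weeks. The 4 groups held 2 libraries each, described as independent biological replicates: wildtype untreated, S203AKI mutant untreated, wildtype after DSS and S203AKI mutant after DSS. DSS is dextran sulfate sodium, which injures the colonic epithelium. It was given at 2% in the drinking water for 7 days, followed by 3 days of plain water, and all mice were taken on day 10. The titles name the mutants S203AKI, while the series title names an S182A substitution in RORgt, the transcription factor of Th17 cells and group 3 innate lymphoid cells. The 3′ counts do not read the substitution, so they give no check of the genotype labels. CD4+ T cells had been enriched with an isolation kit before loading, so shares of cell classes are those of an enriched suspension.

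Ligands of the CXC class with a glutamate-leucine-arginine motif (Cxcl1, Cxcl2, Cxcl3, Cxcl5) signal through Cxcr2 and draw neutrophils, whereas the interferon-induced Cxcl9 and Cxcl10 signal through Cxcr3 and draw activated T cells and NK cells. Ccl2, Ccl7, Ccl8 and Ccl12 act on Ccr2 or related receptors and recruit monocytes, Ccl17 and Ccl22 act on Ccr4, and Ccl11 acts on Ccr3 of eosinophils. Cxcl12, Cxcl13 and Ccl21 position lymphocytes in tissue and lymphoid structures, through Cxcr4, Cxcr5 and Ccr7. Many inducible members are targets of NF-kB, and Cxcl9 and Cxcl10 of interferon signalling.

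Of the 43 rows, 36 had coordinates in GENCODE vM21 (GRCm38, the mm10 build named in the submitters' processing notes), and most lie in clusters. Chromosome 5 held 10 rows, among them Cxcl5 (chr5:90759360-90761624, + strand), Cxcl3 (chr5:90786103-90789600, +), Cxcl1 (chr5:90891241-90893115, +), Cxcl2 (chr5:90903871-90905938, +), Cxcl9 (chr5:92321347-92328079, −), Cxcl10 (chr5:92346638-92348889, −) and Cxcl13 (chr5:95956951-95961068, +). Chromosome 11 held 12 rows, with Ccl2 (chr11:82035571-82037453, +), Ccl7 (chr11:82045712-82047525, +), Ccl11 (chr11:82057823-82062955, +), Ccl12 (chr11:82101845-82103400, +) and Ccl8 (chr11:82115185-82116799, +) next to each other. Ccl22 (chr8:94745590-94751699, +), Cx3cl1 (chr8:94772009-94782427, +) and Ccl17 (chr8:94810453-94812036, +) are neighbours on chromosome 8. All of these are protein-coding genes.

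RefSeq promoter windows (GRCm38.p6) were matched for 26 of the 38 symbols. The 250 bases before the transcription start are printed for 6 members of the chromosome 5 groups whose levels moved after DSS, because neighbours in these groups moved in opposite directions. Capitals mark matches, on either strand, to the NF-kB-type motif GGGANNNNCC and the interferon-response-type motif GAAANNGAAA.
Cxcl1 (chr5:90890995-90891244, +): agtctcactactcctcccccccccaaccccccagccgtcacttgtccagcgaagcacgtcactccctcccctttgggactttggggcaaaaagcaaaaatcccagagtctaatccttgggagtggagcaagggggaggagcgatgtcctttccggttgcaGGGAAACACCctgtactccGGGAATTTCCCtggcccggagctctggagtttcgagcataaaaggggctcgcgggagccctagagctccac
Cxcl2 (chr5:90903649-90903898, +): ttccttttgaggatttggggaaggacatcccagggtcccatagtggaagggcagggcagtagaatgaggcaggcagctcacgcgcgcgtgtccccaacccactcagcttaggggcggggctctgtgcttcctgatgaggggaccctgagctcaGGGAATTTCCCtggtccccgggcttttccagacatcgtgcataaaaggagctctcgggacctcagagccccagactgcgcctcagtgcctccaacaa
Cxcl3 (chr5:90785851-90786100, +): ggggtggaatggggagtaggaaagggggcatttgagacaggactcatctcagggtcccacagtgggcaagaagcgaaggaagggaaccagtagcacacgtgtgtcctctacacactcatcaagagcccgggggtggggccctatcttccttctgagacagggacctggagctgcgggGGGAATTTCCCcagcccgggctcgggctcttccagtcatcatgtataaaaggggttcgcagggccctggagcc
Cxcl9 (chr5:92328080-92328329, −): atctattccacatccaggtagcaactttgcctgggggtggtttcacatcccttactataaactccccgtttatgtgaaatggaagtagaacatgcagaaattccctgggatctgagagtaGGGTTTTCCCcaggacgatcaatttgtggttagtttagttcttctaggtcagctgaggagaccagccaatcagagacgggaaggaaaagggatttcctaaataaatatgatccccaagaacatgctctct
Cxcl10 (chr5:92348890-92349139, −): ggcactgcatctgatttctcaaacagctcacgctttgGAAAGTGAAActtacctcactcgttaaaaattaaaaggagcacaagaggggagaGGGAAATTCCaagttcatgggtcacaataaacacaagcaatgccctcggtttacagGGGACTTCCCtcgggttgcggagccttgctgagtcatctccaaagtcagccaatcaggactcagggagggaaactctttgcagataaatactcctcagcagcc
Cxcl13 (chr5:95956689-95956938, +): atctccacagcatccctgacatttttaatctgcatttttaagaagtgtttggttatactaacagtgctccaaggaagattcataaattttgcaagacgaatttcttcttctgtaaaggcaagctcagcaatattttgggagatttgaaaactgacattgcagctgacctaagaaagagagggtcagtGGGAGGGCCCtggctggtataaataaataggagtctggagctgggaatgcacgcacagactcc
Cxcl1, Cxcl2 and Cxcl3 all carried GGGAATTTCC, starting 71, 97 and 73 bases before the start. Cxcl10 carried 2 separate NF-kB-type matches and GAAAGTGAAA 213 bases before the start. An NF-kB-type match was in 10 of the 26 member windows and in 17.6% of all 32851 windows searched, and an interferon-type match in 3 of the 26 and in 3.0% of all. Where matches on both strands overlap, the capitals run over both. A match is a description of letters, not of binding.

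The 8 tables held 34497509 to 46960005 UMIs (unique molecular identifiers, each standing for 1 captured transcript) per library and 100673 barcodes in all. Of these, 96721 had at least 400 genes and under 20% mitochondrial UMIs, and 1088 of their 95624 distinct barcode sequences occurred in more than 1 library. Clustering without any chemokine ligand gave 30 clusters, which were named by fixed marker lists as "X-like" classes, with 59268 barcodes in the T-like class, 11318 in the macrophage or monocyte-like class and 9380 in the fibroblast-like class. The wildtype DSS library 1 had the fewest fibroblast-like barcodes (231, against 834 to 1904 in the other libraries), and squamous epithelium-like barcodes were 0 to 3 per untreated library and 36 to 174 per DSS library. An unnamed cluster led by Svs5 and Svs4 had 93 of its 121 barcodes in mutant untreated library 1. Another unnamed cluster, cluster 20, carried fibroblast and macrophage markers together and held 8 to 200 barcodes per library.

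Levels are given as CPM, the UMIs of a gene in a class and library scaled to a common total of UMIs for that class and library. The passing barcodes carried 1138683 UMIs of the 43 rows. The fibroblast-like class held 34.9% of them, the macrophage or monocyte-like class 30.2%, the T-like class 12.2% and the endothelial-like class 10.1%. Summed over the members, the endothelial-like class reached 7132 CPM, the macrophage or monocyte-like class 7649 CPM and the fibroblast-like class 6952 CPM, against 945 CPM in the T-like class. At least 1000 UMIs were counted for 27 rows, and 8 rows (Ccl26, Ccl27b, both rows of Ccl21b and of Ccl27, and 1 row each of Ccl21c and Ccl19) had none in the passing barcodes. Among the 9 classes with 30 barcodes in each library, 10 of the 27 rows had their highest mean level in the macrophage or monocyte-like class, 9 in the fibroblast-like class, 3 in the innate lymphoid or NK-like class, 2 in the dendritic-like class and 1 each in the T-like, endothelial-like and smooth muscle or pericyte-like classes. With classes set by marker counts instead, Cxcl3 and Ccl5 led in the innate lymphoid or NK-like, Cxcl12 in the endothelial-like, Ccl25 in the B-like and Ccl27a in the fibroblast-like class, and the other rows kept their leading class.

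Neutrophil attractants were split between sources (levels are means ± SD over the 8 libraries, compared among these 9 classes). Cxcl2 was highest in the macrophage or monocyte-like class at 2098 ± 273 CPM, followed by the fibroblast-like class at 520 CPM. Cxcl1 was highest in the fibroblast-like class at 1259 ± 352 CPM, with 400.2 CPM in the endothelial-like class. Cxcl5 stood at 356 ± 340 CPM in the fibroblast-like class, an SD that reflects the difference between treatments described below. Cxcl3 had its highest mean in the T-like class (81.6 ± 56.6 CPM), beside 69.2 CPM in the macrophage or monocyte-like class, which lies within that spread. The T-like class held 65.2% of all Cxcl3 UMIs. The small neutrophil-like class of 190 barcodes, with 9 to 66 per library, carried 12721 CPM of Cxcl2 pooled over libraries. This level was not compared with those of the 9 classes.

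Monocyte ligands divided in the same way. Ccl8 reached 1177 ± 588 CPM in the macrophage or monocyte-like class, whereas Ccl2 (516 ± 322 CPM) and Ccl7 (303 ± 185 CPM) were highest in the fibroblast-like class. Ccl12 was at 38.3 CPM in the macrophage or monocyte-like class. The inflammatory CC ligands Ccl4 (715 ± 244 CPM), Ccl6 (309.7 ± 110.9 CPM), Ccl9 (219 ± 51 CPM) and Ccl3 (156 ± 51 CPM) were also highest there among the 9 classes. Ccl5, which cytotoxic and memory lymphocytes store and release, was at 637 ± 138 CPM in the macrophage or monocyte-like class and 588 ± 209 CPM in the T-like class, and these levels did not differ beyond their spread. The T-like class held 62.8% of Ccl5 UMIs. Ccl11 (264 ± 105 CPM) was a fibroblast-like product, and Ccl24 reached only 4.9 CPM, in the macrophage or monocyte-like class.

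Lymphocyte-positioning ligands were stromal. Cxcl12 was at 1360 ± 98 CPM in the fibroblast-like class and 1036 CPM in the endothelial-like class. Cxcl13, the ligand that gathers B cells, was at 1135 ± 1172 CPM in the fibroblast-like class. Ccl21a, which lymphatic vessels display to Ccr7+ cells, was at 4219 ± 971 CPM in the endothelial-like class, which held 98.4% of its UMIs. Cluster 19, the cluster with lymphatic markers, reached 14070 CPM. The Ccl21 copies are nearly identical in sequence, so the assignment of reads among them is uncertain. Ccl19 had 119 UMIs in all.

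Ccl22 (251 ± 74 CPM) and Ccl17 (149 ± 124 CPM) were highest in the dendritic-like class, which held 76.9% and 83.9% of their UMIs. The interferon-induced Cxcl9 was at 316 ± 179 CPM in the macrophage or monocyte-like class and 289 CPM in the dendritic-like class. Cxcl10 was at 621 ± 272 CPM in the fibroblast-like class and 397 CPM in the macrophage or monocyte-like class. Of the membrane-bound ligands, Cxcl16 was highest in the macrophage or monocyte-like class (808 ± 60 CPM) and Cx3cl1 in the innate lymphoid or NK-like class (231 ± 60 CPM, against 28.1 CPM in the endothelial-like class). Xcl1, which attracts cross-presenting dendritic cells, was at 116 ± 51 CPM in the innate lymphoid or NK-like class and 8.8 CPM in the T-like class. Ccl1, a Ccr8 ligand, had 552 UMIs, of which 68.7% were T-like.

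Among ligands best known from epithelia, Cxcl14 was at 162 ± 43 CPM in the fibroblast-like class. Ccl27a was at 16.5 CPM in the smooth muscle or pericyte-like class, Cxcl17 had 46 UMIs, Ccl28 had 31 and Cxcl15 had 4. Ccl25 was between 11.4 and 14 CPM in the T-like, B-like and innate lymphoid or NK-like classes. Exons of Ccl25, Ccl27a, Xcl1, Cxcl10 and Cxcl16 overlap exons of a gene on the other strand, and the use of strand in the counting is not given in the sources used here. Across the 9 classes with 30 barcodes in each library, the genes whose mean levels followed those of Cxcl2 most closely were Cstb, Stk40, Canx, Fundc1 and Slc11a2 (Pearson r 0.963 to 0.971 over 9 classes, which share libraries and depth).

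**Figure D1:**
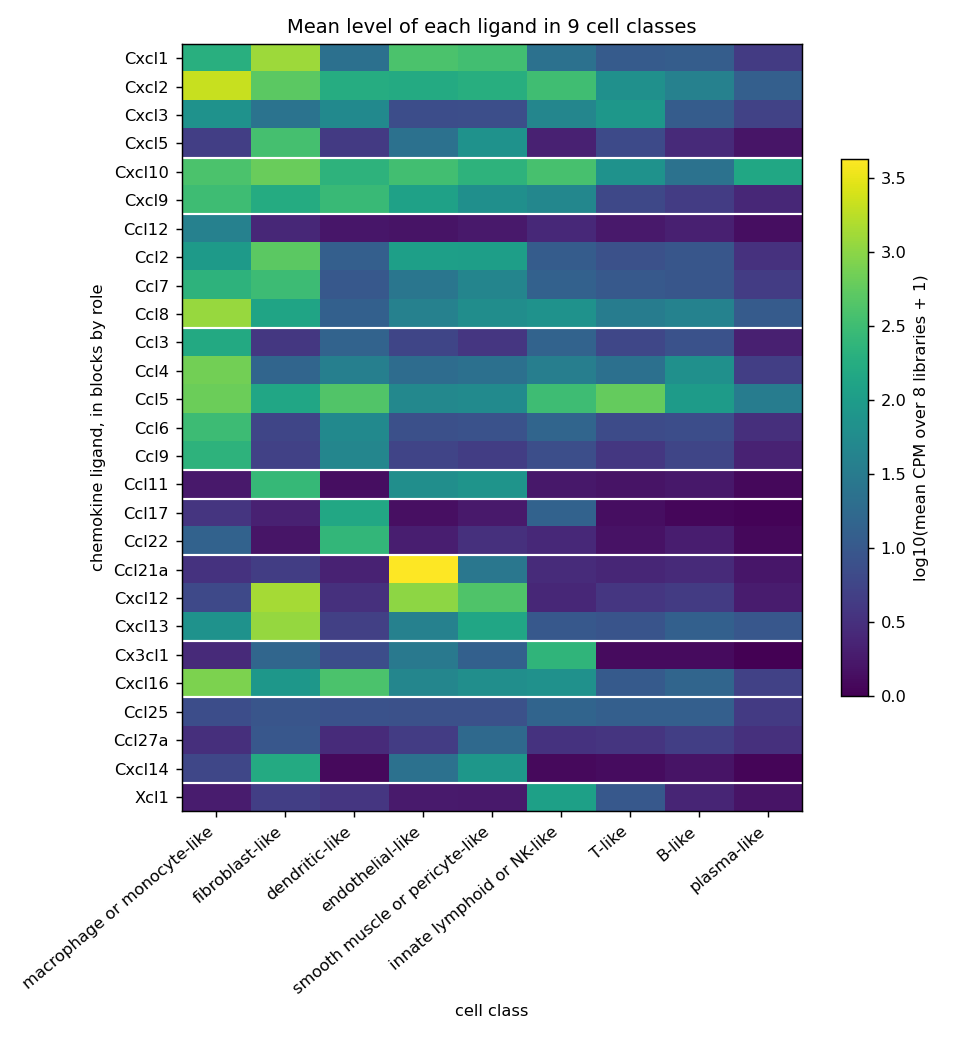
Mean level of the 27 rows with at least 1000 UMIs (vertical axis, in blocks by role) in 9 cell classes (horizontal axis), as log10 of the mean CPM over 8 libraries plus 1. Most rows are brightest in the macrophage or monocyte-like or the fibroblast-like column, and Ccl21a, at 4219 CPM in the endothelial-like class, is the brightest cell.

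The main comparison set the 4 DSS libraries against the 4 untreated libraries, both genotypes averaged, with edgeR's quasi-likelihood test on counts summed per class and library. A member was called at a Benjamini-Hochberg adjusted p under 0.05 over all genes of the fit. Members that failed the filter on low counts were not tested, and a member that passed only through the group where it is high had to differ. The fits share libraries, and fewer cells of a type cannot be told apart from less RNA per cell in the fit over all barcodes.

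In the fibroblast-like class, 3 of the 4 neutrophil attractants, Ccl2 and Ccl7 of the monocyte ligands and the B cell attractant Cxcl13 rose after DSS, and both interferon-induced ligands fell. Of the 27 members tested, 9 rose and 5 fell, and 23.5% of all genes in this fit were called. The members' median change was 0.50 on the log2 scale, beside 0.00 for all genes. All 7 fibroblast markers were detected in this class and summed to 14532 to 24926 CPM per library. Markers of plasma cells summed to 2220 to 3915 CPM in untreated and 9880 to 19856 CPM in DSS libraries of the class, and those of innate lymphoid cells to 96.5 to 142.6 and 147.6 to 305.8 CPM. Their part in the calls below was not tested.

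Cxcl5 was at 43.1 and 57.0 CPM in the wildtype untreated and 37.8 and 60.0 CPM in the mutant untreated libraries. The DSS libraries were at 468 and 791 CPM in wildtype and 701 and 689.8 CPM in mutants. Every DSS library lay above every untreated one, at a log2 change of 3.82 ± 0.24 (SE; edgeR adjusted p = 7.55e-05). Cxcl1, which was already at 811 to 1264 CPM untreated, was at 1188 to 1958 CPM after DSS, with overlapping groups and a change of 0.59 ± 0.17 (adjusted p = 0.0374). Cxcl2 rose by 1.06 ± 0.27 (adjusted p = 0.0252), and its groups overlapped too, at 191 to 566 CPM untreated and 402 to 1109 CPM after DSS. Cxcl3, at 9.2 to 26.3 CPM untreated and 18.8 to 47 CPM after DSS, was not called (adjusted p = 0.0585).

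Ccl2 was at 256 and 233 CPM in wildtype and 245 and 211 CPM in mutant untreated libraries, and at 611 and 977 CPM in wildtype and 667 and 923 CPM in mutant libraries after DSS. The groups did not overlap, and the change was 1.83 ± 0.20 (adjusted p = 0.000712), or 3.56-fold. Its neighbour Ccl7 was at 133 and 179 CPM in wildtype and 105 and 128 CPM in mutants untreated. After DSS it was at 548 and 421 CPM in wildtype and 503 and 409 CPM in mutants, a change of 1.86 ± 0.14 (adjusted p = 0.00011). Ccl11, next in the same array and an eosinophil attractant, was at 152 to 199 CPM in the 4 untreated libraries and 301 to 403 CPM in the 4 DSS libraries, a change of 1.12 ± 0.11 (adjusted p = 0.000387). Ccl8, at the end of the array, was at 89.9 to 111 CPM untreated and 72.8 to 231 CPM after DSS and was not called (adjusted p = 0.0627).

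Cxcl13 was at 100.2 and 187 CPM in wildtype and 118 and 336 CPM in mutant untreated libraries. The DSS libraries were at 1251 and 2150 CPM in wildtype and 1642 and 3297 CPM in mutants. The lowest DSS library was above the highest untreated one, and the change was 3.59 ± 0.42 (adjusted p = 0.000963). Cxcl12 stayed between 1227 and 1507 CPM in all 8 libraries, with a change of 0.07 and a 95% interval from −0.14 to 0.28.

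Cxcl10 was at 941 and 1025 CPM in wildtype and 736 and 692 CPM in mutant untreated libraries, and at 369 and 499 CPM in wildtype and 418 and 285 CPM in mutant DSS libraries. All DSS libraries were below all untreated ones, and the level fell by 1.03 on the log2 scale (SE 0.16, adjusted p = 0.00288). Cxcl9 was at 173 to 376 CPM untreated and 29.8 to 160 CPM after DSS and fell by 1.71 (SE 0.45, adjusted p = 0.0266). The remaining calls were of low members. Ccl6 and Ccl9 rose from 1.4 to 3.3 CPM up to 4.3 to 8.4 CPM, Ccl27a fell, and Xcl1 and Ccl1 fell, with single libraries at 0.5 to 10.0 CPM and 0 to 6.0 CPM. Ccl1 passed the filter through the wildtype untreated libraries, so its fall was built in and is not read as a result. Ccl6 and Ccl9 are highest in the macrophage or monocyte-like class, whose markers summed to 207 to 265 CPM in untreated and 263 to 422 CPM in DSS fibroblast-like libraries. The part of such RNA in these calls was not tested. Leaving out each of the 8 libraries in turn, Cxcl5, Ccl2, Ccl7, Ccl11, Cxcl13, Ccl9 and Cxcl10 kept their calls every time, whereas Ccl6 kept it in 7 of 8 fits, Xcl1 in 6, Cxcl9 in 4, Cxcl2 and Ccl27a in 2 and Cxcl1 and Ccl1 in 1. In other alternatives the sign turned for Cxcl10 (0.18 with the class set by marker counts) and for Ccl9 (−0.31) and Ccl6 (−0.26) with cluster 20 added.

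**Figure D2:**
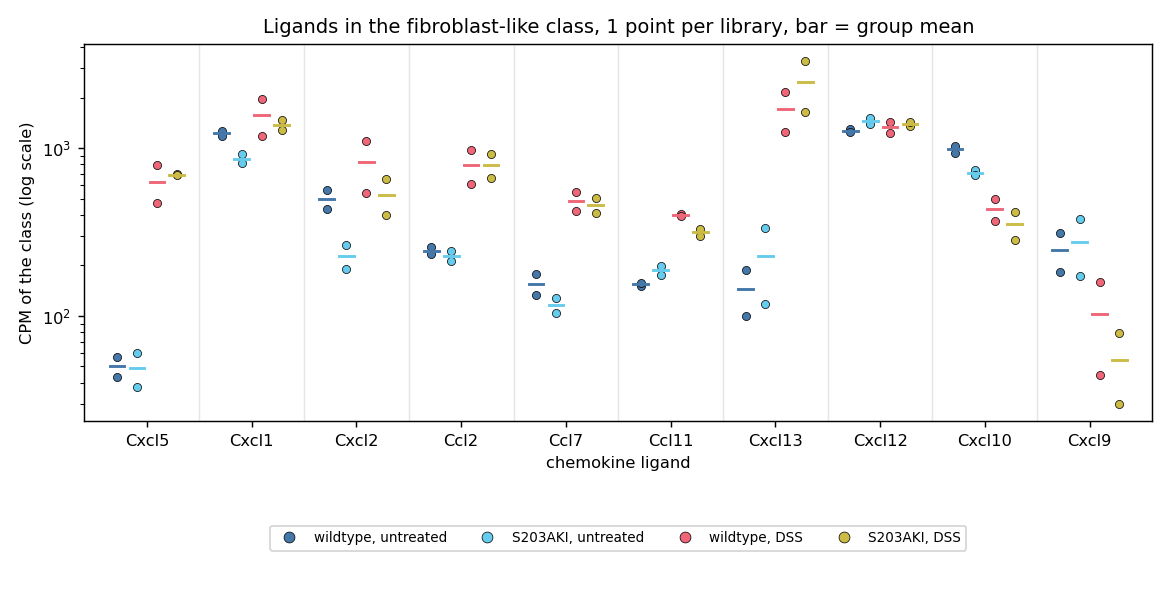
CPM of 10 ligands in the fibroblast-like class on a log axis, 1 point per library and a bar at the mean of the 2 libraries of each group. For Cxcl5 the DSS points lie at 468 to 791 CPM and the untreated points at 37.8 to 60.0 CPM, whereas the Cxcl12 points lie together between 1227 and 1507 CPM.

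The fibroblast-like class was made of different clusters in the treatments. Cluster 8 held 546 to 1101 barcodes per untreated library and 22 to 190 per DSS library, and cluster 16 held 11 to 26 and 56 to 660. Without cluster 16 the Cxcl5 change was 2.86 (adjusted p = 0.000459) and the Cxcl13 change 2.93 (adjusted p = 0.00226). In cluster 14, the most evenly filled, 10 of 22 members tested rose and 1, Ccl8 (−0.99), fell, where 18.6% of all genes were called. Cxcl1 (0.21, adjusted p = 0.483), Cxcl10 (−0.60, adjusted p = 0.0545) and Cxcl9 (−0.82, adjusted p = 0.214) were not called in this cluster. Cxcl3, not called over the whole class, was called in cluster 14 (2.59, adjusted p = 0.000644). It was also called without cluster 16 (1.18, adjusted p = 0.0499) and with cluster 20 added (1.21, adjusted p = 0.0396). With the unnamed cluster 20 added to the class, 7 rose and 8 fell of 30, where 20.1% of all genes were called.

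Within single clusters the ligands differed in pattern. In cluster 14, Cxcl5 was at 12.5 to 27.4 CPM untreated and 169 to 740.0 CPM after DSS (change 4.85 ± 0.42, adjusted p = 4e-06). In cluster 8 it was at 51.9 to 81.2 CPM untreated and 29.3 to 77.4 CPM after DSS, and the groups overlapped. Cxcl13 was higher in every DSS library than in every untreated library in cluster 8 (781 to 1902 against 102 to 516 CPM) and in cluster 13 (2186 to 4828 against 133 to 213 CPM). Cxcl12, level over the whole class, was at 289 to 452 CPM untreated and 1165 to 1711 CPM after DSS in cluster 14, a change of 2.00 ± 0.19 (adjusted p = 1e-05). Cxcl14 was also called there, at 2.0 to 30.7 CPM untreated and 54.8 to 102 CPM after DSS (change 2.47, adjusted p = 0.000661). No test compared one cluster with another.

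In the macrophage or monocyte-like class, Ccl8 and Cxcl9 fell after DSS and Cxcl3 rose, while the abundant Cxcl2 was not called. Of 26 members tested, 3 rose and 7 fell, and 25% of all genes in this fit were called. The members' median change was −0.30, beside −0.00 for all genes. Summed macrophage markers were 10658 to 13475 CPM in untreated and 6942 to 8982 CPM in DSS libraries, and summed monocyte markers 360 to 515 CPM and 724 to 1064 CPM.

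Ccl8 was at 1491 and 2026 CPM in wildtype and 1774 and 1495 CPM in mutant untreated libraries. After DSS it was at 825 and 697 CPM in wildtype and 612 and 493 CPM in mutants. The groups did not overlap, and the level fell by 1.54 on the log2 scale (SE 0.14, adjusted p = 0.000308), 2.91-fold. Cxcl9 was at 485 and 494 CPM in wildtype and 581 and 299 CPM in mutant untreated libraries, and at 217, 153, 171 and 129 CPM in the DSS libraries in the same order. It fell by 1.63 (SE 0.20, adjusted p = 0.000994), with no overlap. Cxcl10 showed no such change, at 210.0 to 412 CPM untreated and 264 to 668 CPM after DSS (change 0.32, 95% interval −0.36 to 1.01).

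Cxcl3 rose by 1.16 ± 0.18 (adjusted p = 0.00199), from 28.1 to 45.9 CPM in untreated libraries to 78.0 to 127 CPM in DSS libraries. Neutrophil markers in this class summed to 48.7 to 55.4 CPM untreated and 57.1 to 249.5 CPM after DSS, and their part in the Cxcl3 rise was not tested. Cxcl2 was at 1823 to 2603 CPM untreated and 1764 to 2317 CPM after DSS (change −0.24, 95% interval −0.53 to 0.05). Ccl2, which rose in the fibroblast-like class, fell by 0.75 here (SE 0.17, adjusted p = 0.0104), at 75.5 to 135 CPM untreated and 73.4 to 77.2 CPM after DSS. The wildtype untreated library 1, at 75.5 CPM, overlapped the DSS libraries. Among smaller calls, Ccl12 fell by 1.15, Ccl17 by 2.13, Cx3cl1 by 1.01 and Cxcl16 by 0.32, and Cxcl13 (1.58) and Cxcl5 (1.61) rose. Ccl17, Cx3cl1 and Cxcl5 did not exceed 10.2 CPM in any library of this class. Ccl17 and Cx3cl1 passed the filter through untreated libraries and Cxcl5 through DSS libraries. Their changes are part of the counts above, were built in and are not read as results. Conventional dendritic markers, whose class leads in Ccl17, summed here to 55.3 to 85.3 CPM in untreated libraries. Every DSS library lay below that range, the lowest at 41.3 CPM. The part of these markers in the Ccl17 fall was not tested. Fibroblast markers, whose class leads in Cxcl13 and Cxcl5, summed here to 20.5 to 34.6 CPM in untreated and 37.4 to 72.7 CPM in DSS libraries, and their part in these rises was not tested. Leaving out each library in turn, Ccl8, Cxcl9, Cxcl3 and Ccl2 kept their calls in all 8 fits, Ccl17 in 7, Cxcl13 in 4, Ccl12 in 2, Cxcl5 and Cxcl16 in 1 and Cx3cl1 in 0.

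Of the 2 macrophage or monocyte-like clusters, cluster 2 held 575 to 1618 barcodes per untreated and 814 to 1193 per DSS library, and cluster 11 held 161 to 385 and 230 to 596. Cluster 2, led by C1qa, carried 1638 CPM of Ccl8, and cluster 11, led by Il1b and Chil3, carried 59.9 CPM. Fitted alone, cluster 2 gave Ccl8 a change of −1.34 (adjusted p = 0.00116) and Cxcl9 −1.59 (adjusted p = 0.00116). In cluster 11, 9 members fell and 2 rose of 22 tested, where 18.1% of all genes were called. Ccl6, a Ccr1 ligand, fell there by 1.07 (adjusted p = 0.0118), from 556 to 1117 CPM in untreated libraries to 236 to 538 CPM after DSS.

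In the dendritic-like class, Ccl17 fell 7.2-fold after DSS while its chromosomal neighbour Ccl22 was not called. Of 19 members tested, 1 rose and 5 fell, and 13.7% of all genes in this fit were called. The members' median was −0.45, beside 0.00 for all genes. Markers of conventional dendritic cells summed to 478 to 609 CPM in untreated and 289 to 466 CPM in DSS libraries, and those of mature dendritic cells to 1002 to 1256 CPM and 1567 to 2309 CPM. Markers of other types moved too: T markers were at 614 to 733 CPM untreated and 778 to 1272 CPM after DSS, innate lymphoid markers at 176 to 308 and 514 to 658 CPM and mast cell markers at 0 to 58.9 and 177.5 to 543.1 CPM, while plasmacytoid markers were at 524 to 611 and 269 to 338 CPM. Their part in the results of this class was not tested.

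Ccl17 was at 206 and 296 CPM in wildtype and 301 and 241 CPM in mutant untreated libraries. The DSS libraries were at 33.4 and 38.4 CPM in wildtype and 60.4 and 18.3 CPM in mutants. The groups were far apart, and the level fell by 2.85 on the log2 scale (SE 0.25, adjusted p = 4.2e-05). Ccl22 was at 242 and 201 CPM in wildtype and 284 and 414 CPM in mutant untreated libraries, and at 254, 193, 241 and 179.8 CPM after DSS in the same order. Its groups overlapped and its change was −0.46 ± 0.16 (adjusted p = 0.0733). The difference between the 2 genes was not tested.

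Cxcl9 fell in the dendritic-like class by 1.73 (SE 0.31, adjusted p = 0.00306), at 371 to 611 CPM untreated and 63.2 to 224 CPM after DSS. Cxcl10 fell by 1.26 (SE 0.37, adjusted p = 0.0347), although wildtype DSS library 1, at 329.5 CPM, lay among the untreated libraries (257 to 374 CPM). Ccl6 fell by 2.02 (adjusted p = 0.00275) and Cxcl2 by 0.88 (adjusted p = 0.00316), at 160.1 to 265 CPM untreated and 106 to 150.2 CPM after DSS. Cxcl3 rose by 1.82 ± 0.34 (adjusted p = 0.00397), from 7.3 to 49.5 CPM up to 51.2 to 103 CPM. Ccl5 (0.08) and Cxcl16 (−0.00) had 95% intervals from −0.41 to 0.57 and from −0.29 to 0.29. All of these calls were kept without any single library except that of Cxcl10, kept in 3 of 8 fits.

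In the endothelial-like class, Cxcl12 fell and the lymphatic ligand Ccl21a did not change detectably. Of 23 members tested, 3 rose and 1 fell, and 3.44% of all genes in this fit were called. Cxcl12 was at 856 and 1591 CPM in wildtype and 1283 and 2575 CPM in mutant untreated libraries. After DSS it was at 704 and 383 CPM in wildtype and 519 and 376 CPM in mutants, all below the untreated libraries. It fell by 1.64 on the log2 scale (SE 0.26, adjusted p = 0.0101), and the call was lost without wildtype untreated library 2 (adjusted p = 0.0506). In cluster 12, the blood endothelial part, it fell by 1.69 (adjusted p = 0.00542), from 1242 to 3311 CPM to 447 to 941 CPM.

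Ccl21a was at 3579 to 5862 CPM untreated and 3025 to 5070.3 CPM after DSS, with a change of 0.01 and a 95% interval from −0.37 to 0.39. Ccl2 rose by 1.28 ± 0.29 (adjusted p = 0.04), at 32.7 to 115 CPM untreated and 87.2 to 215 CPM after DSS. Cxcl5 (2.58, adjusted p = 0.011) and Cxcl13 (2.69, adjusted p = 0.0496) rose too. For Cxcl13 the DSS libraries were at 2.4, 118, 32.2 and 117 CPM against 6.5 to 16.3 CPM untreated, and without wildtype DSS library 2 its change was 0.38 (adjusted p = 0.91). Fibroblast markers in the endothelial-like class summed to 1129 to 1821 CPM untreated and 1045 to 1444 CPM after DSS, 7.84% of their own class, and smooth muscle markers to 1403 to 1796 and 1734 to 2850 CPM. Innate lymphoid markers summed to 27.0 to 51.0 and 74.3 to 110.3 CPM and conventional dendritic markers to 28.9 to 38.4 and 42.0 to 54.5 CPM. Mature dendritic markers were at 246.2 to 292.7 and 317.1 to 334.1 CPM. The part of all these markers in the results of this class was not tested. Leaving out each library in turn, the Cxcl5 call was kept in 6 of 8 fits, that of Ccl2 in 3 and that of Cxcl13 in 2. In cluster 19, the lymphatic part, no member was called, where 1.63% of genes were.

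**Figure D3:**
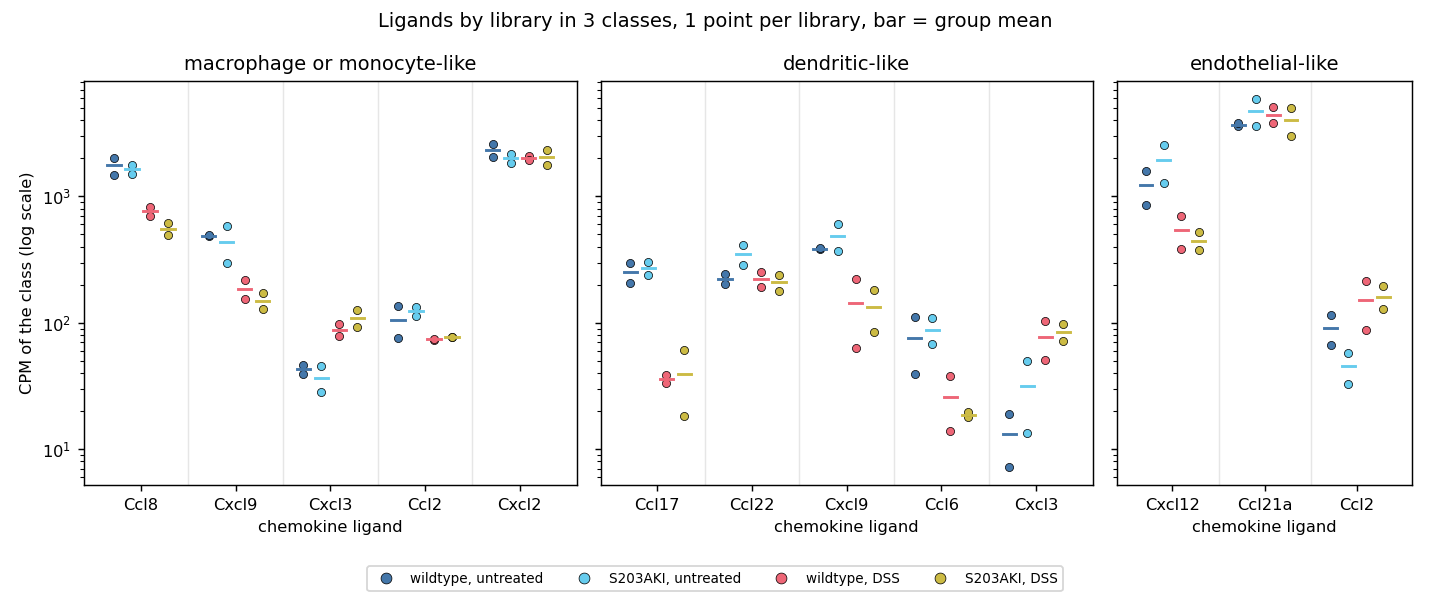
CPM on a log axis of 5 ligands in the macrophage or monocyte-like class, 5 in the dendritic-like class and 3 in the endothelial-like class, 1 point per library and a bar at each group mean. Ccl8, Ccl17 and endothelial-like Cxcl12 lie lower in all DSS libraries than in any untreated library, and macrophage or monocyte-like Cxcl2 lies between 1764 and 2603 CPM in all 8.

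Over the whole T-like class the lymphocyte ligands Ccl1 and Xcl1 fell, and ligands that are mainly stromal or myeloid rose at low levels. Of 27 members tested, 4 rose and 4 fell, and 23.1% of all genes in this fit were called. Summed T markers were at 3037 to 3571 CPM in untreated and 2449 to 2987 CPM in DSS libraries, without overlap. Neutrophil markers were at 9.9 to 12.6 and 15 to 26.8 CPM and mature dendritic markers at 338 to 363 and 374 to 431 CPM, and the part of these shifts in the results was not tested. The clusters of this class were also fitted one by one, because the leading genes of clusters 0, 5 and 6 included markers of other lists (Gzma in 0, Ccr7 in 5, Il1rl1 and Gata3 in 6) and no T marker. Without these 3 clusters, 3 members rose and 1, Cxcl10, fell of 23 tested, where 16.5% of all genes were called. The Ccl1 and Xcl1 calls were lost there, at −1.48 (adjusted p = 0.15) and −0.63 (adjusted p = 0.221). Fitted alone, the 7 clusters gave 3 to 9 members that rose and 0 to 3 that fell of 12 to 22 tested, where 11.5% to 21.1% of all genes were called.

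Ccl1 was at 3.4 and 6.3 CPM in wildtype and 5.5 and 2.9 CPM in mutant untreated libraries, and at 0.9, 0.6, 1.1 and 1.9 CPM after DSS in the same order. It fell by 2.12 on the log2 scale (SE 0.33, adjusted p = 0.00677). In cluster 6, led by Il1rl1 and Foxp3, which marks regulatory T cells, Ccl1 was at 24.3 and 89.3 CPM in wildtype and 69.3 and 49.6 CPM in mutant untreated libraries. The 4 DSS libraries of this cluster were at 1.6 to 4.2 CPM, and the level fell by 4.46 (adjusted p = 1e-05). Ccl1 passed the filter in this cluster through the untreated libraries. A fall was therefore built in, and the p-value is not read as support. Cluster 6 held 37.7% of all Ccl1 UMIs, and it had 254 to 409 barcodes per untreated and 767 to 1040 per DSS library. In cluster 0, Ccl1 was at 2.4 to 5.1 CPM untreated and 1.4 to 3.6 CPM after DSS and was not called (adjusted p = 0.13).

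Cxcl3 was concentrated in cluster 1, led by Il17a, Il17f and Il22, the cytokines of Th17 cells, which held 39.9% of its UMIs at 287 CPM. Its levels there were 129 and 119 CPM in wildtype and 321 and 449.7 CPM in mutant untreated libraries, and 349 and 156 CPM in wildtype and 354 and 147 CPM in mutant libraries after DSS. The DSS change in cluster 1 was 0.19 (adjusted p = 0.65). In cluster 0, cluster 4 and cluster 9, where levels were lower, Cxcl3 rose by 1.16 (adjusted p = 0.032), 0.98 (adjusted p = 0.025) and 1.22 (adjusted p = 0.032). Over the whole T-like class it was not called (change 0.67, adjusted p = 0.349), and the DSS libraries were at 133, 43.4, 175 and 41.4 CPM.

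Ccl5 was concentrated in cluster 0, led by Nkg7 and Gzma, at 1235 to 2014 CPM untreated and 1495 to 1682 CPM after DSS, and it was not called (change −0.19, adjusted p = 0.34). It fell by 1.35 in cluster 9, led by proliferation genes such as Mki67, (adjusted p = 0.00091), from 249.7 to 526 CPM to 127 to 224 CPM. In cluster 4, led by Foxp3, it fell by 0.97 (adjusted p = 0.045). Xcl1 was at 6.1 to 22.2 CPM in untreated and 4.7 to 7.4 CPM in DSS libraries of the class. It fell by 0.91 (adjusted p = 0.0395). Cxcl10 fell by 0.63 (adjusted p = 0.0229), at 58.3 to 114 CPM untreated and 43.0 to 67.5 CPM after DSS.

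Cxcl13 (change 3.57), Ccl7 (2.10), Ccl2 (1.78) and Ccl9 (1.31) rose in the T-like class. Their T-like means were 0.69%, 3.1%, 1.35% and 1.29% of the means in their leading classes. Cxcl13 was at 1.0 to 1.3 CPM untreated and at 3.6, 29.6, 9.9 and 15.2 CPM after DSS. In the same class the 8 macrophage markers, none of them at 0, summed to 43.2 to 107 CPM in untreated and 79.9 to 308 CPM in DSS libraries, which is 1.27% of their level in the macrophage or monocyte-like class. The 7 fibroblast markers summed to 13.0 to 25.6 CPM and 11.8 to 50.6 CPM, 0.129% of their own class. The part of such RNA in these 4 calls was not tested. Cxcl13 (2.48 to 4.81) and Ccl2 (1.47 to 2.55) rose in each of the 7 clusters fitted alone. Ccl2 was at 2.0 to 4.1 CPM in untreated libraries of the whole class. With untreated levels this low, both may have passed the filter in single clusters only through DSS libraries. The rise in each cluster is therefore not read as support. Ccl17 fell by 2.81 (adjusted p = 0.0404), but its DSS libraries held only 0.05 to 0.14 CPM. It passed the filter through untreated libraries at 1.08 and 1.12 CPM. This fall, part of the count above, was therefore built in and is not read as a result. Over the fits that leave out 1 library, Ccl1 kept its call in 8 of 8, Cxcl13 and Ccl7 in 7, Ccl2 in 6, Cxcl10 in 4, Xcl1 in 3, Ccl9 in 2 and Ccl17 in 1.

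**Figure D4:**
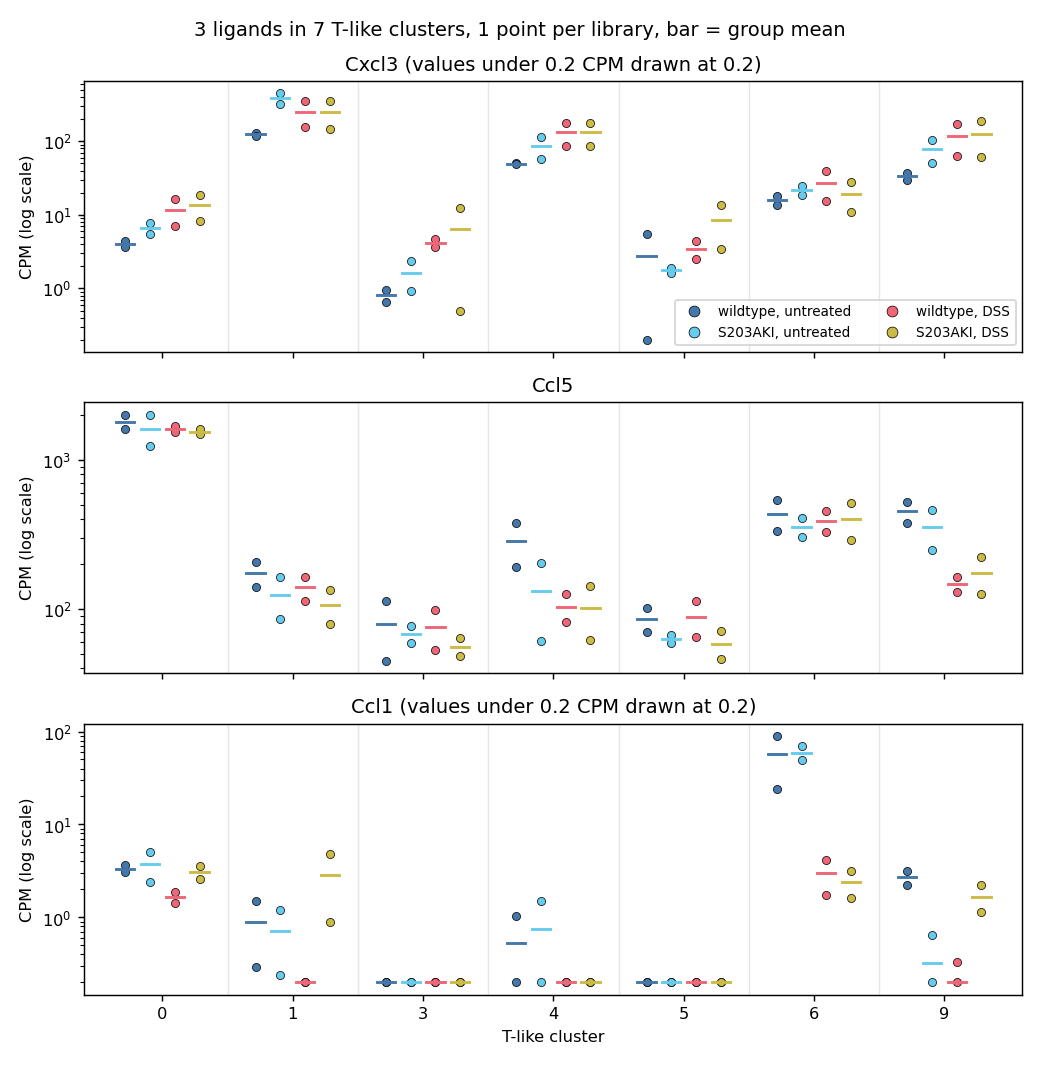
CPM on a log axis of Cxcl3, Ccl5 and Ccl1 in 7 T-like clusters, 1 point per library and a bar at each group mean, with values under 0.2 CPM drawn at 0.2 in the Cxcl3 and Ccl1 panels. Cxcl3 is highest in cluster 1, Ccl5 in cluster 0 and Ccl1 in cluster 6, where the DSS points lie at 1.6 to 4.2 CPM and the untreated points at 24.3 to 89.3 CPM.

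In the B-like class, which had the lowest member levels of the fitted classes (324 CPM summed), 5 of 11 members tested rose and none fell, and 14.9% of all genes in this fit were called. Cxcl2 was at 22.7 and 21.7 CPM in wildtype and 19.2 and 18.8 CPM in mutant untreated libraries, and at 59.4, 85.3, 61.1 and 18.6 CPM after DSS in the same order. It rose by 1.43 ± 0.23 (adjusted p = 0.000221), with the mutant DSS library 2 at the untreated level. Ccl7 (2.37), Cxcl1 (2.25), Ccl2 (1.54) and Ccl4 (0.69) rose as well, the first 3 at no more than 28.4 CPM in any library. These 3 were at no more than 7.2 CPM in any untreated library and passed the filter through DSS libraries. Their rises were built in, and the count of 5 is not read as a result about the members. Macrophage markers in this class summed to 42.2 to 122 CPM untreated and 103 to 410 CPM after DSS, and the class's own B markers to 2920 to 3118 and 2518 to 2915 CPM. Their part in these results was not tested. The Cxcl2 call was lost without mutant DSS library 1. Over the 8 fits that leave out a library, Cxcl1 and Ccl7 kept their calls in 6, Ccl4 in 3 and Ccl2 in 1. DESeq2 called none of the 5 and gave no adjusted p for 4 of them.

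Over all passing barcodes summed, 2 of 30 members tested rose and 7 fell, and 23.5% of all genes in this fit were called. Cxcl5 rose by 3.42 ± 0.43 (adjusted p = 0.00677), from 9.7 to 17.8 CPM up to 60.8 to 226 CPM, and Cxcl13 by 3.07 (adjusted p = 0.019). Ccl17 fell by 2.68, Cxcl9 by 1.91, Ccl1 by 1.78, Ccl8 by 1.35, Cxcl10 by 0.91, Ccl27a by 0.55 and Cxcl16 by 0.49. Ccl2, which rose in the fibroblast-like and fell in the macrophage or monocyte-like class, was not called here (1.03, adjusted p = 0.109). These sums also move with the makeup of the suspension, and the makeup and the level per cell cannot be told apart. Squamous epithelium markers, for example, summed to 0 to 3.9 CPM in untreated and 259.3 to 795.7 CPM in DSS libraries, and Cxcl5 was at 563.0 to 1676.2 CPM in the squamous epithelium-like class after DSS. Leaving out each library in turn, Cxcl5 and Ccl17 kept their calls in all 8 fits, Cxcl9 and Ccl8 in 7, Cxcl10 and Ccl1 in 6, Cxcl13 in 4 and Ccl27a and Cxcl16 in 1. Over the 6 class fits, Cxcl13 rose in 4 of the 6 classes where it was tested, Cxcl5 in 3 of 4, and Cxcl9 fell in 3 of 5. The macrophage or monocyte-like rise of Cxcl5 is among these and was built in by the filter, as given above. Ccl5 was tested in 6 classes and called in none.

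**Figure D5:**
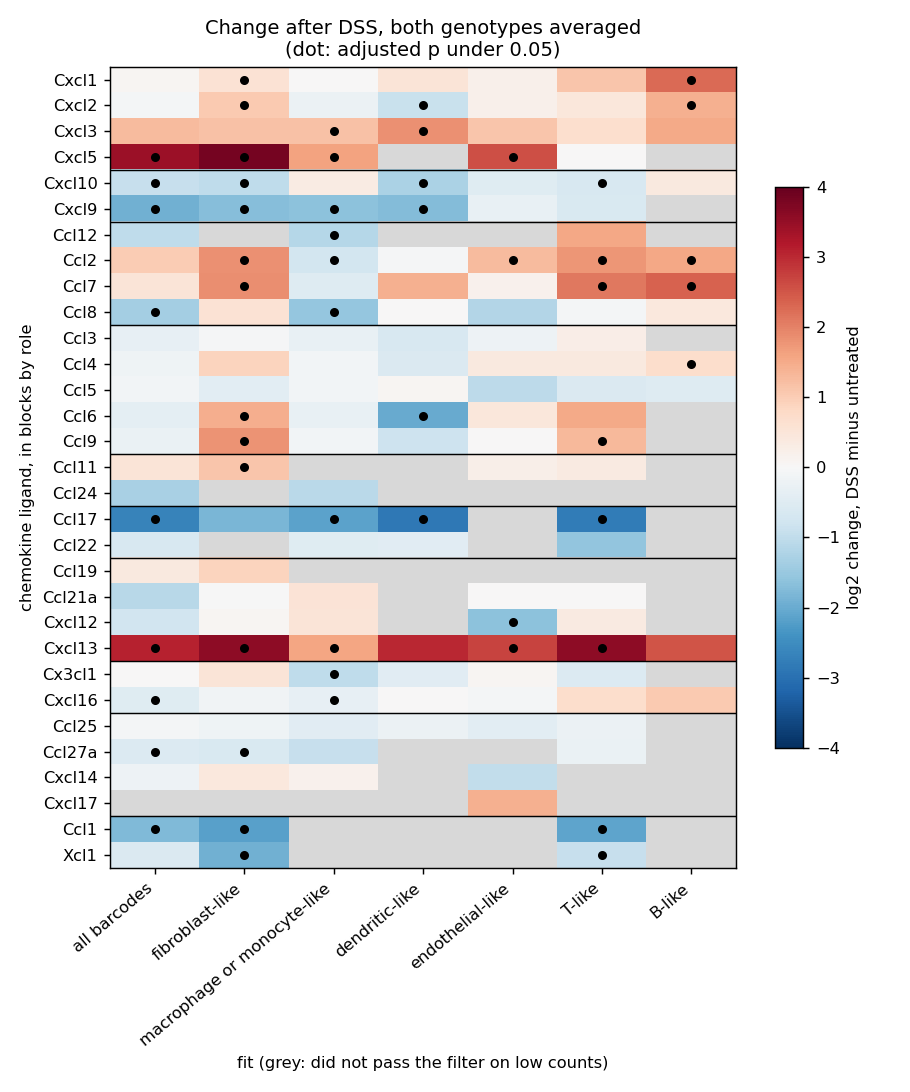
Log2 change after DSS (color, DSS minus untreated, both genotypes averaged) of each member tested (vertical axis, in blocks by role) in 7 fits (horizontal axis), with a dot at an adjusted p under 0.05 and grey where a member did not pass the filter. The Cxcl5 and Cxcl13 rows are red where called, the Cxcl9 row is blue where called, and the Ccl2 row is red in the fibroblast-like and blue in the macrophage or monocyte-like column.

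The study's own comparison of DSS with no treatment in wildtype mice had 2 libraries against 2. It shares its wildtype libraries with the averaged comparison, so the values below are part of those above. In the fibroblast-like class 6 members rose and 2 fell of 27 tested, and 4.48% of all genes in this fit were called. Cxcl5 rose by 3.74 ± 0.34 (adjusted p = 0.00122), Cxcl13 by 3.65, Ccl2 by 1.78, Ccl9 by 1.73, Ccl7 by 1.68 and Ccl11 by 1.42, and Cxcl10 fell by 1.10 and Ccl17 by 4.74, the last from 3.0 and 4.1 CPM to 0.5 and 0 CPM. Ccl17 was at no more than 0.92 CPM in any library outside the wildtype untreated group. It passed the filter through that group, so its fall was built in and is not read as a result. In the macrophage or monocyte-like class 2 of 26 fell and none rose (0.759% of all genes called): Ccl8 by 1.35 (adjusted p = 0.0179) and Cxcl9 by 1.55 (adjusted p = 0.0378). The next smallest p-values there were those of Ccl17 (−3.17) and Cxcl3 (0.90). Ccl17 passed the filter in this class through untreated libraries, so its difference was built in. Without 1 library at a time, Cxcl5 in the fibroblast-like class and Ccl17 in the dendritic-like class kept their calls in all 8 fits, Ccl7 and Ccl11 in 7, Ccl2, Cxcl13 and fibroblast-like Ccl9 in 5 and fibroblast-like Cxcl10 and Ccl17 in 3. These 8 fits include those without a mutant library, which is not among the libraries compared. Ccl2, Cxcl13 and Ccl9 lost their calls without wildtype untreated library 1, wildtype untreated library 2 or wildtype DSS library 2. With the fibroblast-like class set by marker counts the Cxcl5 change turned to −4.65, and with cluster 20 added the Ccl9 change turned to −0.84. Ccl8 lost its call without wildtype untreated library 2 (−1.09, adjusted p = 0.221) or either wildtype DSS library, and Cxcl9 without any 1 of the 4 wildtype libraries.

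In the dendritic-like class Ccl17 fell by 2.87 (adjusted p = 0.0019) and Cxcl3 rose by 2.44 (adjusted p = 0.0248), 2 of 19 members, where 1.51% of all genes were called, followed by Cxcl2 (−0.87) and Ccl6 (−1.67). The Cxcl3 call was kept in 4 of 8 fits that leave out a library and lost without any 1 of the 4 wildtype libraries. In the B-like class Ccl4 (1.61) and Cxcl2 (1.63) rose and Ccl5 fell by 2.54 (adjusted p = 0.00556), 3 of 11 members, where 1.12% of all genes were called, with Cxcl1 (2.58) next. Cxcl1, which was not called, passed the filter through DSS libraries, so a rise was built in. Of these 3 calls, those of Ccl5 and Cxcl2 were kept in 5 and that of Ccl4 in 6 of 8 fits that leave out a library. Every loss was in a fit without a wildtype library. Without wildtype untreated library 1 the Ccl5 change was −1.75 and its call was lost. No member was called in wildtype over all barcodes, in the T-like class or in the endothelial-like class, where 0.526%, 0.103% and 0.0721% of all genes were called. At an unadjusted p under 0.05 there were 10 of 30, 6 of 27 and 5 of 23 members, beside 22.9%, 21% and 9.51% of all genes. DESeq2 called 6, 4 and 1 members, beside 7.69%, 3.7% and 0.388% of all genes. The smallest adjusted p-values over all barcodes were 0.0585 for Ccl17 (−2.69), 0.0593 for Cxcl5 (3.39), 0.0721 for Ccl1 (−2.41) and 0.0772 for Ccl8 (−1.33). In the T-like class they were those of Ccl1 (−2.71), Cxcl13 (3.59), Cxcl2 (0.88) and Ccl7 (1.54), and in the endothelial-like class those of Cxcl5 (2.35), Cxcl12 (−1.19), Cxcl13 (2.79) and Ccl8 (−1.55).

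The second question of the design was whether the mutants differed from wildtype without treatment. Ccl5 in the B-like class was the only member called, and in the other 6 fits neither a member nor any other gene was (0% of all genes called). Ccl5 there was at 335 and 126 CPM in wildtype and 52.2 and 15.5 CPM in mutant untreated libraries, and it was lower in mutants by 2.94 on the log2 scale (95% interval −3.74 to −2.14, adjusted p = 0.000117), where 0.277% of all genes were called. Without wildtype untreated library 1 the difference was −2.13 and lost its call (adjusted p = 0.0842). The 6 NK markers, 1 of them at 0, summed in the B-like class to 45.3 CPM in that library and to 3.1 to 13.1 CPM in the other untreated ones. Their part in the result was not tested. The next smallest p-values in the B-like class were those of Ccl4 (0.77), Cxcl3 (2.41) and Cxcl13 (3.58), none called.

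In untreated fibroblast-like libraries the smallest p-values belonged to Ccl17 (−3.56, at 3.0 and 4.1 CPM in wildtype and 0.4 and 0.2 CPM in mutants), Cxcl2 (−1.19), Ccl1 (−1.91) and Ccl21a (4.10), all at an adjusted p of 1.0. Ccl17 and Ccl1 passed the filter through the wildtype untreated group, where they are high, so their differences were built in. Both are among the 8 fibroblast-like members counted below. Cxcl2 was at 435 and 566 CPM in wildtype and 263 and 191 CPM in mutants. In the endothelial-like class they were Cxcl2 (−1.08, 95% interval −1.67 to −0.49, adjusted p = 0.965, but −1.10 and called at an adjusted p of 0.045 with a block over neighbouring title numbers), Ccl6 (−2.15), Ccl2 (−1.05) and Ccl8 (−1.20). In the T-like class they were Cxcl10 (0.65), Xcl1 (1.06), Cxcl2 (0.58) and Cxcl5 (1.71), with adjusted p-values from 0.84 up. The macrophage or monocyte-like class gave Ccl3 (0.83), Ccl12 (1.07), Ccl24 (−0.83) and Ccl5 (−0.45). The dendritic-like class gave Ccl22 (0.69), Cxcl3 (1.30), Ccl5 (−0.57) and Cxcl16 (0.28), and all barcodes gave Ccl5 (−0.74), Cxcl2 (−0.63), Ccl7 (−0.62) and Ccl24 (−1.29). At an unadjusted p under 0.05 there were 3 members of 30 over all barcodes (2.9% of all genes), 4 of 27 in the T-like (5.6%), 8 of 27 in the fibroblast-like (3.89%), 1 of 26 in the macrophage or monocyte-like (5.94%), 2 of 19 in the dendritic-like (3.12%), 3 of 11 in the B-like (6.48%) and 5 of 23 in the endothelial-like fit (4.17%). DESeq2 called none, with no adjusted p given for B-like Ccl5.

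After DSS, edgeR called no member and no other gene between mutant and wildtype in any of the 7 fits (0% of all genes called). At an unadjusted p under 0.05 there were 5 members of 27 in the fibroblast-like (3.22% of all genes), 2 of 26 in the macrophage or monocyte-like (1.73%), 4 of 19 in the dendritic-like (2.7%), 3 of 11 in the B-like (3.27%) and 3 of 23 in the endothelial-like fit (3.25%). There were 0 over all barcodes (0.985%) and in the T-like fit (1.08%), and DESeq2 called none. The fibroblast-like members with the smallest p-values were Ccl8 (−0.82), Ccl19 (−1.52), Ccl11 (−0.38) and Cxcl14 (−0.59). Ccl8 was also first in the macrophage or monocyte-like class (−0.50, 95% interval −0.94 to −0.06), at 825 and 697 CPM in wildtype and 612 and 493 CPM in mutants, followed by Ccl17 (2.02), Cxcl12 (0.75) and Ccl24 (−0.90). The endothelial-like class gave Cxcl3 (3.36, adjusted p = 0.72, at 2.4 and 1.1 CPM in wildtype and 23.6 and 11.7 CPM in mutants), Ccl11 (0.68), Cxcl2 (0.63) and Ccl3 (−1.71). Cxcl3 passed the filter there through the mutant DSS libraries. Its difference, among the 3 endothelial-like ones counted above, was built in and is not read as a result. The dendritic-like class gave Ccl2 (1.87), Ccl7 (1.93), Cxcl1 (1.65) and Cxcl10 (−1.17), and the B-like class Ccl4 (−1.07), Cxcl3 (1.89), Ccl5 (1.10) and Cxcl2 (−0.60). In the T-like class they were Ccl1 (0.96), Ccl27a (0.70), Cxcl12 (0.72) and Ccl8 (−0.80), and over all barcodes Ccl8 (−0.52), Ccl19 (−1.29), Ccl22 (−0.72) and Cxcl9 (−0.59).

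For 6 of the ligands described above, the intervals of the mutant difference show what these libraries could resolve. In untreated fibroblast-like libraries the difference of mutant from wildtype was −0.09 for Cxcl5 (95% interval −0.80 to 0.62), 0.60 for Cxcl13 (−0.63 to 1.83) and −0.15 for Ccl2 (−0.77 to 0.47). After DSS it was 0.08 for Cxcl5 (−0.61 to 0.77), 0.49 for Cxcl13 (−0.72 to 1.71) and −0.05 for Ccl2 (−0.67 to 0.57). Ccl17 in the dendritic-like class differed by 0.14 untreated (−0.50 to 0.78) and by 0.19 after DSS (−0.67 to 1.04). Cxcl12 in the endothelial-like class differed by 0.61 untreated (−0.17 to 1.40) and by −0.29 after DSS (−1.09 to 0.51). Cxcl3 in the T-like class, where its most abundant source was the Il17a-led cluster, differed by 1.44 untreated (−0.20 to 3.08) and by 0.26 after DSS (−1.31 to 1.84). None of these intervals shows that the genotypes are alike, and several reach past a 2-fold difference.

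The receptors that read these ligands were followed as a second list in the same fits. After DSS, both genotypes averaged, Cxcr4, the receptor of Cxcl12, rose in the T-like (0.94, adjusted p = 0.00615), fibroblast-like (1.17), dendritic-like (0.89), B-like (1.14) and endothelial-like (1.56) classes and over all barcodes (1.01). Ccr2, the receptor of Ccl2, rose in all 7 fits, by 0.46 in the macrophage or monocyte-like class to 1.2 in the B-like class. Innate lymphoid markers in the endothelial-like class and macrophage markers in the B-like class are given above. The part of such RNA in the Cxcr4 and Ccr2 rises was not tested. Cxcr3, the receptor of Cxcl9 and Cxcl10, fell by 0.27 in the T-like class (adjusted p = 0.0436), and Cxcr5, the receptor of Cxcl13, fell there by 0.75 (adjusted p = 0.0276). Cxcr2, which reads the neutrophil attractants, was higher by 2.97 over all barcodes (adjusted p = 0.00598). Neutrophil markers, a list that includes Cxcr2 itself, summed there to 19.6 to 34.2 CPM in untreated and 217.1 to 621.6 CPM in DSS libraries. The part of neutrophils in the difference was not tested. Cx3cr1, the receptor of Cx3cl1, fell by 1.25 in the macrophage or monocyte-like class and Xcr1, the receptor of Xcl1, by 1.43 in the dendritic-like class. Xcr1 is also on the list of conventional dendritic markers whose sums are given above.

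In counts, 6 of the 21 receptors tested rose and 4 fell over all barcodes, beside 23.5% of all genes called, 2 and 2 of 17 in the T-like class (23.1%) and 7 and 1 of 16 in the fibroblast-like class (23.5%). They were 4 and 1 of 14 in the macrophage or monocyte-like (25%), 4 and 1 of 12 in the dendritic-like (13.7%), 3 and 0 of 7 in the B-like (14.9%) and 2 and 0 of 10 in the endothelial-like class (3.44%). Beside those named, Ccr4, Ccr7 and Ccr9 rose and Ackr2 and Ackr4 fell over all barcodes, Ackr3, Ccr1, Ccr7, Ccr9 and Ccr10 rose and Ackr4 fell in the fibroblast-like class, and Ccr1, Ccr9 and Cxcr6 rose in the macrophage or monocyte-like class. Ccr4 and Ccr7 rose in the dendritic-like class and Ccr7 in the B-like class. Ccr7 is also on the list of mature dendritic markers whose sums are given above. Ccr1, Ccr2, Ccr7 and Ccr9 are receptors of leukocytes. T markers summed to 439 to 619 CPM in untreated and 339 to 585 CPM in DSS fibroblast-like libraries, and B markers to 25.5 to 49.8 and 63.0 to 90.4 CPM. Plasma cell and innate lymphoid markers of that class moved as given above. The part of all these markers in the calls was not tested. In wildtype alone, Ccr10 was called in the fibroblast-like, Ccr2 in the dendritic-like and Cxcr4 and Ccr7 in the B-like class. No receptor was called between mutant and wildtype in either treatment.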

How the data were processed

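Single-cell 3′ RNA was counted in 8 mouse libraries. The deposited values are raw UMI counts per gene and barcode, which the authors made with Cell Ranger 3.1.0 on mm10, with Seurat 4.0.1 also named, per the submitters' processing notes. The authors also deposited a list of 27420 barcodes, all of which passed the limits used here (at least 400 genes, under 20% mitochondrial UMIs). Only 1 table carried gene identifiers as row names. The row order of the others was checked by row totals (correlation of at least 0.975, against at most 0.318 with rows shifted by 1). Library totals are given above, and p-values measure the spread between 2 libraries per group. Replicates are numbered in accession order, as names only.

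Barcodes were clustered with scanpy 1.11.5 (2000 variable genes, of which 1749 stayed after removals that included every member, 30 components, 20 neighbours, Leiden resolution 1). Marker lists named 25 of the 30 clusters, with thresholds chosen once the clusters were known. No doublet caller was run: 61.02% of barcodes had at least 2 markers of 2 classes, and an alternative leaves such barcodes out.

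Counts were summed per class and library and tested with edgeR 4.0.16 (TMM, filterByExpr, quasi-likelihood, 4 group means over 8 libraries), with DESeq2 1.42.0 as an alternative. Only classes with 30 barcodes in each library had levels compared. The fitting code was tested on simulated data. The text names every member called and, where fewer than 4 were, those with the smallest p up to 4. Alternatives were DESeq2, other size factors, no filter on low counts, each library left out, classes by marker counts (3 own markers and fewer than 2 of any other list), limits of 800 genes and 10% mitochondrial UMIs, the 4 compared libraries alone, the authors' barcodes, and, chosen after seeing the data, single clusters and a block over pairs of a wildtype and a mutant library with neighbouring title numbers. The members, roles and lists were chosen with earlier results of these data known. 1 ligand and 1 receptor of the families are not reported here.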

Additional observations from a re-analysis of the deposited data

Results flagged for a closer look

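Among 94 sets of 4 untreated or 4 DSS libraries, 2 held a library whose gap to the nearest other, divided by the range, passed Dixon's 95% critical value for 4 values. Chance gives about 5% of such sets. Ccl1 in the fibroblast-like class was at 6.0 CPM in wildtype untreated library 2 and at 1.0 to 1.8 CPM in the other untreated libraries (ratio 0.843). Cxcl9 in the dendritic-like class was at 610.6 CPM in mutant untreated library 1 and at 370.7 to 392.8 CPM in the others (ratio 0.908).

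For Ccl5 in the B-like class the test of the difference in the DSS effect between genotypes passed the threshold. The effect in mutants minus that in wildtype was 4.03 on the log2 scale (95% interval 2.74 to 5.32, edgeR adjusted p = 0.00275), with wildtype libraries at 335 and 126 CPM untreated and 19.8 and 58.5 CPM after DSS, and mutants at 52.2 and 15.5 CPM untreated and 108 and 48.9 CPM after DSS. The call was kept in 5 of 8 fits that leave out a library and lost without wildtype untreated library 1 (3.22, adjusted p = 0.0688), wildtype DSS library 1 (3.55, adjusted p = 0.0802) or mutant DSS library 1 (3.20, adjusted p = 0.465), and DESeq2 did not call it (3.74, adjusted p = 1.0). NK markers in the B-like class summed to 45.3 CPM in wildtype untreated library 1 and 3.1 to 13.1 CPM in the other untreated libraries, and their part in the result was not tested.

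In classes that were not fitted, 7 pairs of a ligand and a class, with 5 ligands among them, had at least 200 UMIs and a higher value in every DSS library than in every untreated one, with no test run. How many pairs were searched, and the share of all genes with such a split, are not given here. The number of pairs is therefore not read as a result about the ligands. Of the 7 pairs, 4 are in the squamous epithelium-like class, where 3 untreated libraries held no barcode and 1 held 3. No level could be read in its untreated libraries, and nothing is compared (Ccl2 reads 0 to 13.8 CPM there). In its DSS libraries Cxcl5 was at 563.0 to 1676.2 CPM (6730 UMIs), Cxcl3 at 137.5 to 286.8 CPM (1153 UMIs), Cxcl13 at 1.2 to 212.5 CPM (457 UMIs) and Ccl2 at 16.2 to 74.0 CPM. In the glia-like class Ccl2 was at 1538.8 to 2678.2 CPM after DSS and 197.9 to 844.7 CPM untreated. In the neutrophil-like class Ccl6 was at 573.0 to 1084.3 CPM after DSS and 344.0 to 539.0 CPM untreated. Cxcl5 in the smooth muscle or pericyte-like class was at 68.4 to 155.7 CPM after DSS and 6.0 to 22.5 CPM untreated.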

How the results depend on the processing

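For the 56 member calls after DSS averaged over genotypes, 605 of 818 alternative values kept direction and call, 210 kept direction only and 3 reversed. In every alternative that gave them a value, 10 calls were kept, beside 0 of the 15 calls for DSS in wildtype and 0 of the 1 for untreated mutants. Alternatives in which a member was not tested are left out. So are those where the direction held but DESeq2 gave no adjusted p. The main counts of members called over all barcodes and in the T-like, fibroblast-like, macrophage or monocyte-like, dendritic-like, B-like and endothelial-like classes were 9, 8, 14, 10, 6, 5 and 4. They include the calls described above as built in by the filter. DESeq2 gave 11, 8, 15, 7, 5, 0 and 3, the B-like 0 with no adjusted p given for 4 of the 5 members, beside 26.5%, 20%, 16.2%, 18.7%, 7.43%, 6.1% and 3.23% of all genes. Leaving out 1 library gave ranges of 2 to 13, 1 to 10, 8 to 14, 5 to 10, 5 to 9, 0 to 6 and 0 to 5. Classes by marker counts, which hold far fewer barcodes, gave 5 in the T-like, 5 in the fibroblast-like, 6 in the macrophage or monocyte-like, 0 in the dendritic-like, 0 in the B-like and 1 in the endothelial-like class. Without a filter on low counts the T-like, dendritic-like, B-like and endothelial-like counts were 18, 12, 9 and 8, in fits where edgeR's prior degrees of freedom became infinite. The authors' barcodes gave 6 in the macrophage or monocyte-like class and the stricter limits 1 in the B-like class. T-like clusters 4 and 5 each gave 5 (17.2% and 15.2% of all genes). The T-like class without clusters 0, 5 and 6 gave 4 (16.5%), and endothelial-like cluster 19 gave 0 (1.63%). The other alternative counts, save those of DESeq2, have no share of all genes beside them and are not read as results about the members.

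For DSS in wildtype the main counts in the same order were 0, 0, 8, 2, 2, 3 and 0, with ranges of 0 to 4, 0 to 2, 1 to 13, 0 to 4, 1 to 4, 1 to 4 and 0 to 1 without 1 library. DESeq2 gave 6, 4, 9, 4, 1, 1 and 1, beside 7.69%, 3.7%, 4.65%, 2.37%, 1.04%, 0.672% and 0.388% of all genes. No filter gave 6, 15, 19, 10, 6, 5 and 6. Fitting the 4 libraries alone gave 3 over all barcodes, 13 in the fibroblast-like, 5 in the macrophage or monocyte-like and 4 in the dendritic-like class. Marker counts gave 3 in the fibroblast-like, 1 in the macrophage or monocyte-like, 0 in the dendritic-like and 0 in the B-like class, and the stricter limits 1 in the B-like class. T-like clusters 5, 6 and 9 gave 1, 1 and 4, beside 0.48%, 0.536% and 3.18% of all genes. Cluster 2 gave 0, beside 0.422%. For untreated mutants, no filter gave 7 in the T-like, 4 in the fibroblast-like, 2 in the macrophage or monocyte-like, 1 in the dendritic-like and 6 in the endothelial-like class. Without the filter, edgeR's prior degrees of freedom were infinite in every class fit. The 4 libraries alone gave 2 in the fibroblast-like and 1 in the macrophage or monocyte-like class. The B-like count of 1 was 0 by marker counts and 0 to 2 without 1 library. For mutants after DSS, no filter gave 1 in the T-like, 4 in the fibroblast-like, 4 in the dendritic-like and 1 in the endothelial-like class. In this paragraph only the counts of DESeq2 and of single clusters have a share of all genes beside them. The other alternative counts are not read as results about the members or the genotypes.

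Log2 values that reversed after DSS averaged over genotypes were those of fibroblast-like Ccl9 (−0.31) and Ccl6 (−0.26) with cluster 20 added and of Cxcl10 (0.18) by marker counts. In wildtype they were T-like Cxcl2 in cluster 6 (−0.17), fibroblast-like Cxcl5 by marker counts (−4.65), Ccl9 with cluster 20 (−0.84) and endothelial-like Cxcl13 without wildtype DSS replicate 2 (−1.86, up to 3.73 without another). In untreated mutants they were T-like Cxcl10 in cluster 5 (−0.06), Cxcl2 in clusters 3 (−0.69) and 5 (−0.92), Cxcl5 in cluster 0 (−3.94), macrophage or monocyte-like Ccl24 without wildtype replicate 1 (0.02, down to −1.35), dendritic-like Ccl5 by marker counts (0.33) and B-like Cxcl13 without mutant replicate 1 (−0.10, up to 6.56). In mutants after DSS they were Ccl19 over all barcodes (0.36, down to −2.01) and T-like Ccl8 (0.21, down to −1.76) without wildtype replicate 2, T-like Ccl1 in cluster 6 (−0.52), fibroblast-like Ccl19 without cluster 16 (0.08) and Cxcl14 by marker counts (0.62), dendritic-like Cxcl10 (0.42, down to −2.20) and endothelial-like Ccl3 (0.05, down to −3.04) without wildtype replicate 1, and B-like Cxcl3 without mutant replicate 1 (−0.70, up to 2.50). Beyond the smaller numbers of barcodes or libraries, the cause was not tested. The labels share no replicate number between groups, but each wildtype title carries a number close to that of 1 mutant of the same treatment, and they do not say what these numbers mark. A replicate block over these 4 pairs, added after seeing the data, called 1 member in the untreated endothelial-like class (Cxcl2, −1.10, adjusted p = 0.045, beside 0.207% of all genes) and moved no other count of mutant against wildtype by over 1.5 times, with B-like Ccl5 at −2.80. For the difference in the DSS effect it called 2 B-like members in place of 1, Ccl5 (3.82) and Ccl4 (−1.97, adjusted p = 0.00153, against 0.092 without the block), beside 19 of all 6848 genes in place of 6. Over genes, the difference between the 2 wildtype libraries correlated with that between the paired mutants at 0.01 to 0.18 untreated and −0.03 to 0.32 after DSS, over 7 fits. The DSS effect lies between pairs. Of the fitted classes the B-like one held the fewest UMIs, 9158141 in 4361 barcodes.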

Other observations

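Several small classes held high levels of some ligands. In the neutrophil-like class of 190 barcodes, Cxcl2 was at 12721 CPM, the macrophage ligands Ccl4 and Ccl3 at 1449 and 1156 CPM and Ccl6 at 742 CPM. The glia-like class of 279 barcodes had 2804 CPM of Cxcl2, 1669 CPM of Cxcl1 and 979 CPM of Ccl2. In the squamous epithelium-like class of 415 barcodes Cxcl5 was at 1074 CPM, and 3 of those barcodes were from untreated libraries. The plasmacytoid-like class of 133 barcodes held 491 CPM summed over the members. These are levels pooled over libraries, with no test.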
